A study of Mus musculus with 360 samples.

Results

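Stereocilia are the actin-filled rods that form the hair bundle on top of a hair cell, and the 9 genes described here encode proteins that bundle this actin or set the length of the rods. They were chosen by name, as the rows of Espn, Espnl, Fscn2, Triobp, Pls1, Eps8, Eps8l2, Lmo7 and Gpsm2 among the 48440 genes of the UMI matrix, and all 9 rows were present. A UMI (unique molecular identifier) marks 1 captured RNA molecule. The matrix holds 360 single cells of the mouse cochlea, 180 in each of 2 groups. Control cells came from animals with Fbxo2CreERT2, a tamoxifen-dependent Cre recombinase under the Fbxo2 gene, and the Cre reporter Rosa26-tdTomato. GAP cells came from animals that carried, beside the same Fbxo2CreERT2 and Rosa26-tdTomato, the Rosa26-GAP allele for Gfi1, Atoh1 and Pou4f3, transcription factors of hair cell development. Both groups received tamoxifen at 3 weeks of age and were collected at 5 weeks by papain dissociation, with sorting on tdTomato and EpCAM, so the measured cells are those in which this Cre had acted and which passed that gate. The submitters placed all but 19 of the cells in 9 clusters with their own names.

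Stereocilia grow from the apical membrane as parallel actin filaments held together by crosslinking proteins. At their base the filaments narrow into a rootlet that anchors the rod in the cuticular plate, an actin mesh under the cell surface. At their tips a complex of myosin 15, whirlin, EPS8, GPSM2 and the G protein subunit encoded by Gnai3 sets the height of the tallest row. Supporting cells of the cochlea have no such bundle, but they hold dense actin at junctions, in microvilli and in the cell cortex, where some of the same crosslinkers are also used.

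The labels name no animals, so each group counts as 1 sample, cells are not replicates, and no test between groups was made. Levels are UMIs summed over a set of cells scaled to counts per 1000000 UMIs of that set (CPM), and intervals are 95% intervals that cover counting error only. Titles carry a letter, A or B for control cells and C or D for GAP cells, and letter and genotype cannot be told apart. GAP cells held a median of 28963 UMIs and control cells 21280, so shares of cells with a UMI are given after each cell was thinned to 8000 UMIs. This left out 3 control cells. As a check of the labels, Atoh1 was at 805 CPM and Pou4f3 at 583 CPM in GAP cells, and both had 0 UMIs in control cells. Of 8 hair cell markers, 4 (Otof, Pvalb, Calb2 and Slc17a8) had 0 UMIs in control cells and the whole list summed to 30 CPM there, against 3006 CPM in GAP cells. Control cells therefore give no level of these genes in native hair cells. Summed over their lists, fibroblast markers stood at 353 CPM in control cells and lower in GAP cells, and 320.6 of the 353 were Lum. Of the other fibroblast markers, Col1a2 was at 18.1 CPM in GAP cells against 0 in controls, and Col3a1 had 0 UMIs in both. Endothelial cell and pericyte markers stood at 136.8 CPM in GAP cells against 25 in controls, of which Rgs5 made up 97.6 and 1 CPM. Kdr was at 23.7 and 18 CPM, and Cdh5 had 0 UMIs in both. Schwann cell, leukocyte and neuron markers stood at 89.4, 12.1 and 20.3 CPM in GAP cells, and neuron markers had 0 UMIs in control cells. Erythroid markers were at 93 CPM in GAP and 0.25 in control cells, but 384 of the 499 UMIs in GAP cells were in cell C92 of the cluster Reprogrammed Supp Cells 2. Without that cell they stood at 21.5 CPM, and in letter D at 0.41. Their part in the results was not tested.

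Across all cells, 4 of the 9 genes were at least 2-fold higher in GAP than in control cells: Triobp, Espn, Espnl and Gpsm2. None was 2-fold lower. Of the 10152 genes that reached 10 CPM in either genotype, 13% were past 2-fold higher and 6.61% past 2-fold lower, and 8 of the 9 genes reached that level. With a minimum of 50 CPM the shares were 9.50% and 6.85%, and with any UMI 14.7% and 6.76%. The median log2 ratio of CPM + 1 was 1.61 over the 9 genes, 1.15 over those 8, and 0.10 over all genes at that level. Without letter C the median over the 9 genes was 0.60. Espnl and Gpsm2, at 0.5 and 5 CPM in control cells, passed 10 CPM through GAP cells alone. These figures describe the list and call nothing particular to it.

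**Figure D1:**
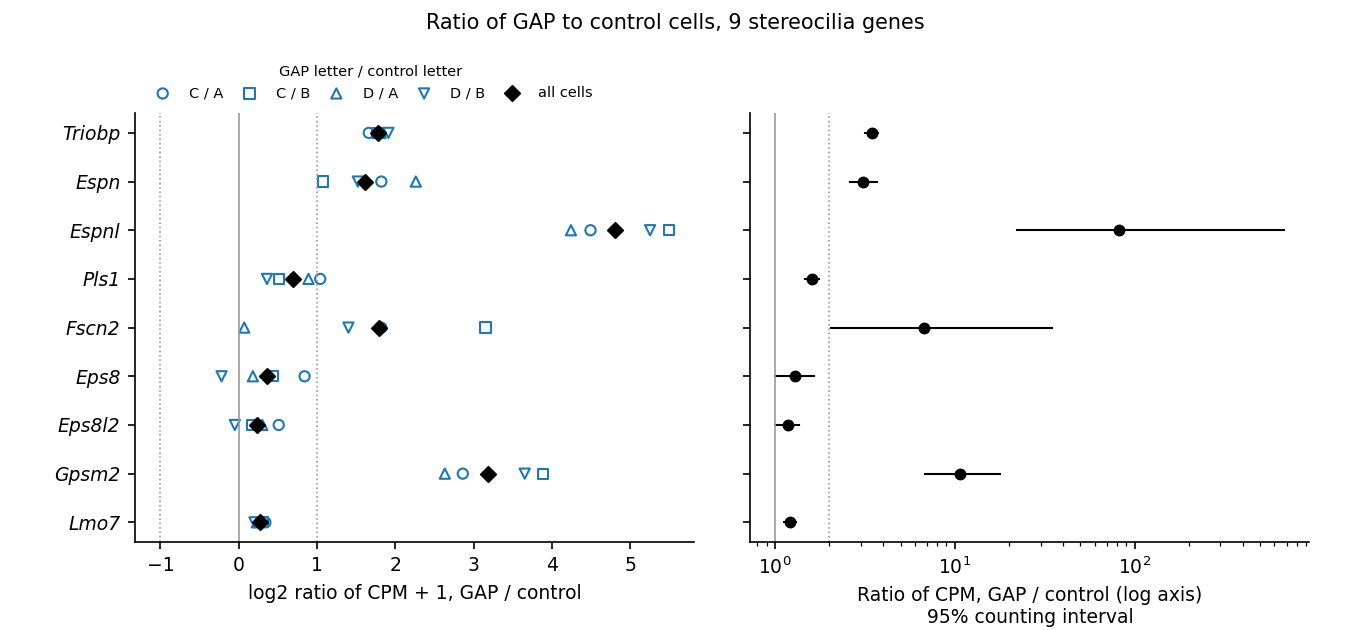
Ratio of GAP to control cells for the 9 genes. Left, log2 ratio of CPM + 1 (x axis) for all cells (black diamonds) and for C or D set against A or B (open symbols, 4 pairings), with dotted lines at a 2-fold difference. Right, ratio of CPM on a log axis with its 95% counting interval, the dotted line marking 2-fold. Triobp, Espn, Espnl and Gpsm2 lie past 2-fold in all 4 pairings, and Eps8 and Eps8l2 lie on both sides of 0.

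Triobp encodes the protein that wraps actin bundles of the rootlet, and the gene also yields short isoforms used in other cells, which counts per gene do not separate. A GAP cell held 0 to 2331 CPM with a median of 479, and a control cell 0 to 1039 CPM with a median of 130.3. The ranges overlapped widely, and most control cells held the gene. Summed, Triobp was at 672 CPM in GAP (3605 UMIs) and 195 CPM in control cells (779 UMIs), 3.45-fold higher (3.19 to 3.73). By letter it stood at 202 CPM in A and 187 in B against 641 in C and 709 in D. The letters of 1 genotype thus lay closer to each other than to any letter of the other genotype. At equal depth 89.4% of GAP cells (84 to 93.5) and 62.1% of control cells (54.6 to 69.3) had a UMI; without thinning the shares were 96.7% and 78.9%.

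Espn encodes espin, a crosslinker of parallel actin whose loss shortens stereocilia and causes deafness in mice. Its median over cells was 79.6 CPM in GAP (0 to 832) and 0 in control cells (0 to 382). Summed, it was at 129.1 CPM against 41.5, 3.11-fold higher (2.62 to 3.71). The control letters differed, at 30.7 CPM in A and 52.1 in B, and the ratio ranged from 2.14 (C against B) to 4.9 (D against A). At equal depth 47.8% of GAP and 20.3% of control cells had an Espn UMI, so more than a few control cells held this gene.

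Espnl, espin-like, is a relative of Espn whose protein is graded between the rows of the bundle. It had 219 UMIs in 55 GAP cells against 2 UMIs in 2 control cells. The median cell of both groups held none, and the highest GAP cell reached 583 CPM against 82.3 CPM for the highest control cell. The levels were 40.8 and 0.5 CPM, and the ratio of 81.6 has an interval of 22.3 to 678 because it rests on those 2 UMIs. Both came from letter A, and letter B had 0 UMIs, which allows up to 1.83 CPM by its 95% interval. Letters C and D were at 44 and 36.9 CPM. At equal depth 18.9% of GAP (13.5 to 25.4) and 1.13% of control cells (0.137 to 4.02) had a UMI, so most GAP cells had none at this depth.

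Pls1 encodes plastin 1, also called fimbrin, which crosslinks actin in stereocilia and in microvilli. Its level was 259 CPM in GAP cells against 160.4 in controls, 1.61-fold higher (1.47 to 1.77), and so under 2-fold. A GAP cell held 0 to 1304 CPM (median 152.7) and a control cell 0 to 1030 (median 104.7). Only the pairing of C with A passed 2-fold, at 2.07. The share of cells with a UMI was 65% in GAP and 56.5% in control cells. Fscn2 encodes fascin 2, a crosslinker that accumulates in stereocilia as they mature. It was near the limit of these data, with 27 UMIs in 11 GAP cells (5.03 CPM) and 3 UMIs in 2 control cells (0.75 CPM). The ratio was 6.71 (2.06 to 34.6), both levels were under 10 CPM, and 23 of the 27 UMIs were in letter C.

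Of the tip and length genes, Gpsm2 had the largest ratio. Its protein, with the subunit encoded by Gnai3, marks the bare zone beside the bundle and the tips of the tallest row. It had 287 UMIs in GAP (53.5 CPM) and 20 in control cells (5 CPM), a ratio of 10.7 (6.8 to 17.8). Of the 20 control UMIs 10 were in a cell of letter A (A57). With the cell holding most Gpsm2 UMIs left out on each side, the log2 ratio of CPM + 1 moved from 3.18 to 3.90. Levels by letter were 7.06 CPM in A, 2.97 in B, 57.3 in C and 48.8 in D. At equal depth 24.4% of GAP (18.4 to 31.4) and 2.26% of control cells (0.619 to 5.68) had a UMI. Antisense Clcc1 overlaps 5.19% of the Gpsm2 exon bases, and whether strand was used in counting is not given in the sources used here.

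Eps8 caps and bundles actin at the tips of the tallest row, and Eps8l2 encodes a relative found at tips as bundles mature. Neither passed 2-fold. Eps8 stood at 34.3 CPM in GAP cells against 26.5 in controls, with a ratio of 1.29 (1.01 to 1.66), and D against B gave 0.855. Eps8l2 stood at 92.4 against 78.5 CPM, with a ratio of 1.18 (1.02 to 1.36), and its share of cells with a UMI was 31.7% in GAP and 36.7% in control cells. Thinned to equal depth, its log2 ratio turned from 0.23 to -0.10. Of the Eps8l2 exon bases 32.2% are also covered by B230206H07Rik on the opposite strand, so without strand its counts could hold reads of that gene. Lmo7, whose protein organises actin of the cuticular plate and of cell junctions, reached 304 CPM in GAP cells against 251 in controls, 1.21-fold higher (1.12 to 1.31). Its 4 pairings ranged only from 1.15 to 1.27, and 78.3% of GAP and 61.6% of control cells had a UMI.

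Levels of different genes were compared per kilobase of merged exons. On this scale Pls1 (66.5 CPM per kb) and Triobp (54.6) were the highest of the 9 in GAP cells, followed by Lmo7 (25.4), Eps8l2 (17.2), Espn (15.6), Gpsm2 (13.7), Espnl (7.49), Eps8 (2.78) and Fscn2 (2.38). In control cells the order began with Pls1 (41.2), Lmo7 (21), Triobp (15.8) and Eps8l2 (14.6), while Espn was at 5.02, Gpsm2 at 1.28 and Espnl at 0.0918 CPM per kb. Triobp thus stood behind Lmo7 in control cells and ahead of it in GAP cells. Lengths run from 2.11 kb for Fscn2 to 12.36 kb for Eps8, so the order depends on the annotation.

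The regions before the start of the 4 genes past 2-fold are printed to show whether they share letters recognised by factors of the GAP allele. Each line holds the 250 bases before the start, 5′ to 3′ on the strand of the gene, from RefSeq on GRCm38.p6. CAGCTG and CAGATG, forms of the E-box core bound by factors of the Atoh1 family, AAATCA, the core of GFI1 sites, and AATTAA, found in POU factor sites, were searched on both strands and are in capitals. CAGCTG reads the same on both strands, and a match of another motif on the opposite strand appears as its reverse complement. For Triobp and Espn the first start of 2 and of 3 in the table is shown.
Triobp, chr15:78947474-78947723, plus strand: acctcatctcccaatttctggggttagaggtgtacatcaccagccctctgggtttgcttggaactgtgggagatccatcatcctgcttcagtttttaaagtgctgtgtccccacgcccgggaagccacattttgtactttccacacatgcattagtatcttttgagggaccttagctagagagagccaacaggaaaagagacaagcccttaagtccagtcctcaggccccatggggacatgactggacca
Espn, chr4:152152390-152152639, minus strand: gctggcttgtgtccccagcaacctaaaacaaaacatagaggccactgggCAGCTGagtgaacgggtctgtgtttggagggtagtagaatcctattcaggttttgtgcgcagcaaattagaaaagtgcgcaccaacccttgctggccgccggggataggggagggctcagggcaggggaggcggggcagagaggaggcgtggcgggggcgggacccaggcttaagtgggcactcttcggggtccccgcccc
Espnl, chr1:91321825-91322074, plus strand: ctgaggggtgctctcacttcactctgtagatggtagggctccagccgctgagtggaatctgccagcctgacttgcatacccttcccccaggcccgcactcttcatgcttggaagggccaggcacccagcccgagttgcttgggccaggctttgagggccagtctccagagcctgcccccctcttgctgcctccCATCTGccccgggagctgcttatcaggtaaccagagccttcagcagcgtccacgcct
Gpsm2, chr3:108722300-108722549, minus strand: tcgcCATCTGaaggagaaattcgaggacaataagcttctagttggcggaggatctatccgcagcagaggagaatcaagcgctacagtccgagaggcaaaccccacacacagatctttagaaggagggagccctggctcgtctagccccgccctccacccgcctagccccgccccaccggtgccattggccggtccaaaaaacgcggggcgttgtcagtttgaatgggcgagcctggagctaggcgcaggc
Espn held CAGCTG 201 bases before this start and held it at 2 places before the last of its starts in the table. Espnl held CAGATG on the opposite strand, starting 57 bases before its start, and Gpsm2 held it 246 bases before its start. Triobp held no match at either start. Of the 12 starts of the 8 genes with an entry, 4 held CAGCTG or CAGATG, against 25.5% of the 32851 regions of the same length in the table (13% for CAGCTG, 14.4% for CAGATG). None of the 12 held AAATCA or AATTAA, which occur in 12.4% and 10.4% of all regions. A match is a run of letters, not a site of binding, and its absence says only that the letters are not in these 250 bases.

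The genes lie on 9 chromosomes (mm10). Triobp spans chromosome 15, 78947724 to 79005869. Espn lies on chromosome 4, 152120331 to 152152371, and Espnl on chromosome 1, 91322075 to 91348306. Pls1 spans chromosome 9, 95752642 to 95845311, and Fscn2 chromosome 11, 120361534 to 120368168. Eps8 spans chromosome 6, 137477245 to 137654876, and Eps8l2 chromosome 7, 141338880 to 141363020. Gpsm2 lies on chromosome 3, 108678638 to 108722309, and Lmo7 on chromosome 14, 101729957 to 101934710. All values are exonic UMIs.

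The clusters place these differences in particular cells. The submitters' names were used as given: WT Supp Cells (33 cells) and the clusters WT Cells 1 (84), WT Cells 2 (34) and WT Cells 3 (22) held mostly control cells. Reprogammed Sup Cells 1 (54), Reprogrammed Supp Cells 2 (20) and Reprogrammed Hair Cells (51) held only GAP cells. Reprogrammed Unknown 1 (26) and Unknown 2 (17) held both. These names sort the same cells whose expression is described, so levels between clusters are a description. The sum of the hair cell marker list did not follow the names, because of 1 gene, Ccer2. It was 5000 CPM in Reprogammed Sup Cells 1, of which 4659 were Ccer2, and 2210 CPM in Reprogrammed Hair Cells. The hair cell cluster was higher in Otof (266 against 86.8 CPM), Myo7a (452 against 128.5) and Slc17a8 (29.8 against 0.563). It was also higher in Pvalb (144.7 against 47.3), Tmc1 (89.3 against 21.4) and Cdh23 (177.9 against 32.7). It was lower only in Ccer2 (1048 against 4659) and Calb2 (2.77 against 23.7). Supporting cell markers summed to 10378 CPM in the hair cell cluster, of which 7793 were S100a1, and to 14485 CPM in WT Supp Cells. Against WT Supp Cells the hair cell cluster was lower in Slc1a3 (24.9 against 1873 CPM), Gjb2 (747.6 against 2741) and Gjb6 (257.5 against 1298). It was also lower in Sox10 and Cntn1, and higher in S100a1, Lgr5 (776 against 278.2) and Fgfr3 (63 against 1.97). Sox2 had 0 UMIs in the hair cell cluster, as in WT Cells 2 and 3 and Unknown 2.

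**Figure D2:**
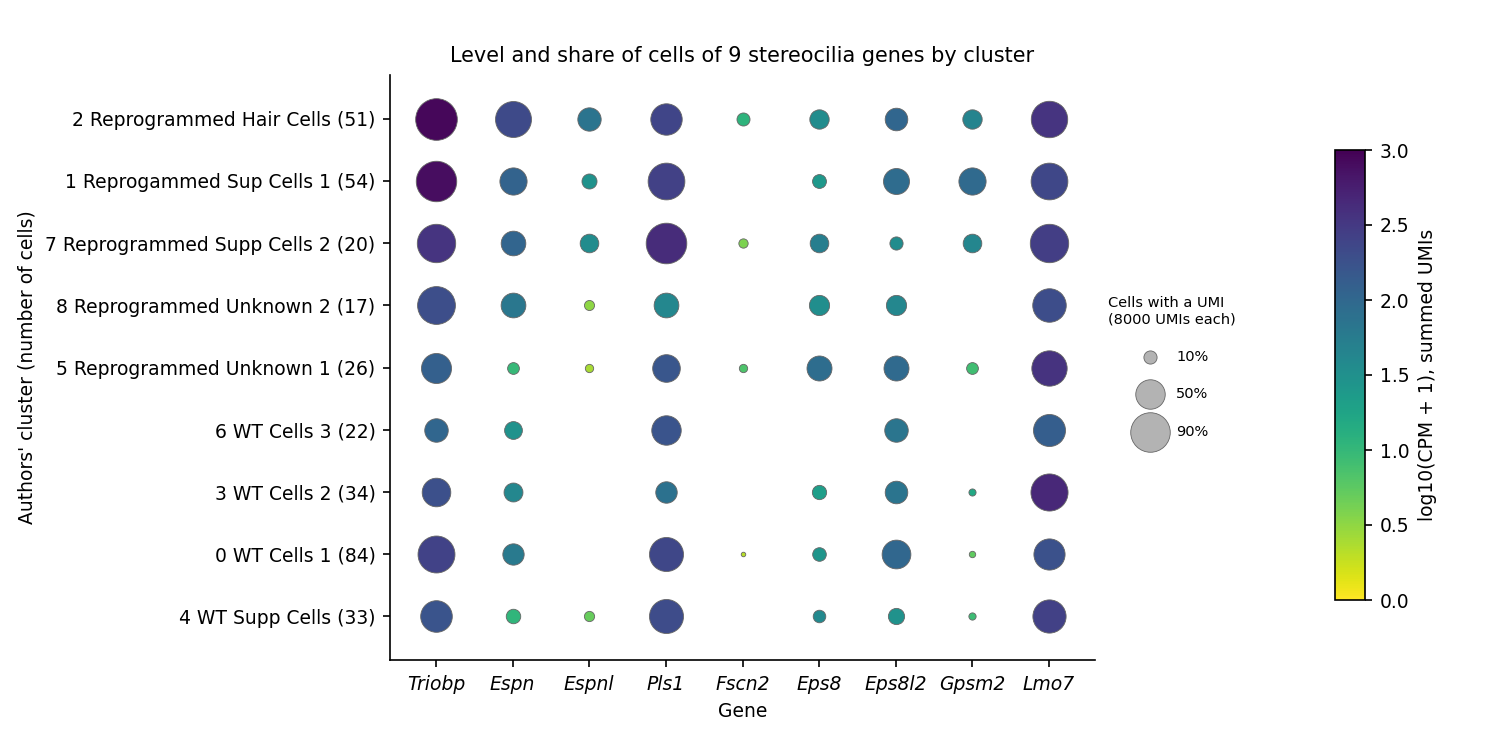
Level and share of cells of each gene in the 9 clusters, which are the rows, with the number of cells in brackets. Colour gives log10(CPM + 1) of summed UMIs and dot area the percent of cells with a UMI after thinning to 8000 UMIs, with no dot where no thinned cell had one. Triobp, Pls1 and Lmo7 have a dot of more than 25% in every cluster, whereas Espnl and Gpsm2 are mostly in the 3 upper clusters.

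Triobp had its highest level in Reprogrammed Hair Cells at 890.2 CPM (842 to 940.3), where every one of the 51 thinned cells had a UMI, and next in Reprogammed Sup Cells 1 at 802 CPM (761 to 845). The intervals of these neighbours overlap. Reprogrammed Supp Cells 2 followed at 354 CPM and WT Cells 1 at 252 CPM, each apart from the next higher cluster by its interval. The other 5 clusters ran from 193 down to 102.7 CPM with neighbours whose intervals overlap. No hair cell cluster cell was without the gene: the lowest held 52.6 CPM, the median cell 772 and the highest 2331. In WT Supp Cells the cells ran from 0 to 434 CPM with a median of 144.8.

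Espn was highest in the hair cell cluster, at 212 CPM (189 to 237), and its interval was apart from the next cluster, Reprogammed Sup Cells 1 at 112.1 CPM (97.1 to 128.8). Reprogrammed Supp Cells 2 was at 108.2 CPM. Unknown 2, which holds cells of both groups, was at 64.3 CPM. Of the clusters of mostly control cells, WT Cells 1 was at 58.9 CPM (26.2% of thinned cells), while WT Supp Cells held 5 UMIs, at 9.87 CPM. Of those 5 UMIs 2 were in its control cells, at 4.36 CPM. Espn was thus uneven among the clusters that hold control cells, and lowest in WT Supp Cells and Unknown 1 (8.75 CPM). The letters of the hair cell cluster also differed: 139.8 CPM in 20 cells of C and 259 CPM in 31 cells of D.

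Espnl was at 69.9 CPM in the hair cell cluster (56.9 to 85), 35.1 in Reprogrammed Supp Cells 2 and 29.3 in Reprogammed Sup Cells 1. The other 6 clusters held 0 to 2 UMIs each, at most 3.95 CPM. Within the hair cell cluster 31.4% of thinned cells had a UMI, the median cell held none and the highest reached 455 CPM. Gpsm2 had another order: Reprogammed Sup Cells 1 was highest, at 93 CPM (79.3 to 108.3) with a median cell of 56.9 CPM, and the hair cell cluster was at 42.9 CPM (32.9 to 55). Reprogrammed Supp Cells 2 was at 40.9 CPM, and no other cluster passed 14.9 CPM.

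Pls1 was highest in Reprogrammed Supp Cells 2, at 421 CPM (355 to 496), where 19 of 20 thinned cells had a UMI. Reprogammed Sup Cells 1 (259 CPM), the hair cell cluster (239.5), WT Cells 1 (228) and WT Supp Cells (205) followed with overlapping intervals between neighbours. WT Cells 2 (74.5) and Unknown 2 (39.9) were the lowest. Lmo7 was highest in a cluster of mostly control cells, WT Cells 2, at 459.7 CPM (417 to 505), ahead of Unknown 1 (362) and the hair cell cluster (351), and lowest in WT Cells 3 (129.3). The fibroblast list also summed highest in WT Cells 2, at 935 CPM, of which 911 were Lum. Dcn was at 21.3 CPM there against 180.9 in Unknown 1, Col1a1 and Col1a2 were at 1.06 and 2.13, and Col3a1 had 0 UMIs. Whether they bear on Lmo7 was not tested.

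Eps8 had its highest level in Unknown 1, 86.1 CPM, where 23 of 59 UMIs came from cell C27. The 7 clusters from Reprogrammed Supp Cells 2 (52.6 CPM) to WT Cells 2 (20.2) could not be separated by the intervals of neighbours, and WT Cells 3 had 2 UMIs (3.8 CPM). Eps8l2 was spread evenly over the hair cell cluster (104.5 CPM), WT Cells 1 (100.7), Unknown 1 (93.4) and Reprogammed Sup Cells 1 (89), and was lowest in WT Supp Cells (29.6). Fscn2 was detected most in the hair cell cluster, with 15 UMIs and 9.8% of thinned cells (10.4 CPM, 5.81 to 17.1). Of these UMIs 12 were in letter C and 3 in D. Reprogammed Sup Cells 1 had 0 UMIs in 1774728, which allows up to 2.08 CPM.

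**Figure D3:**
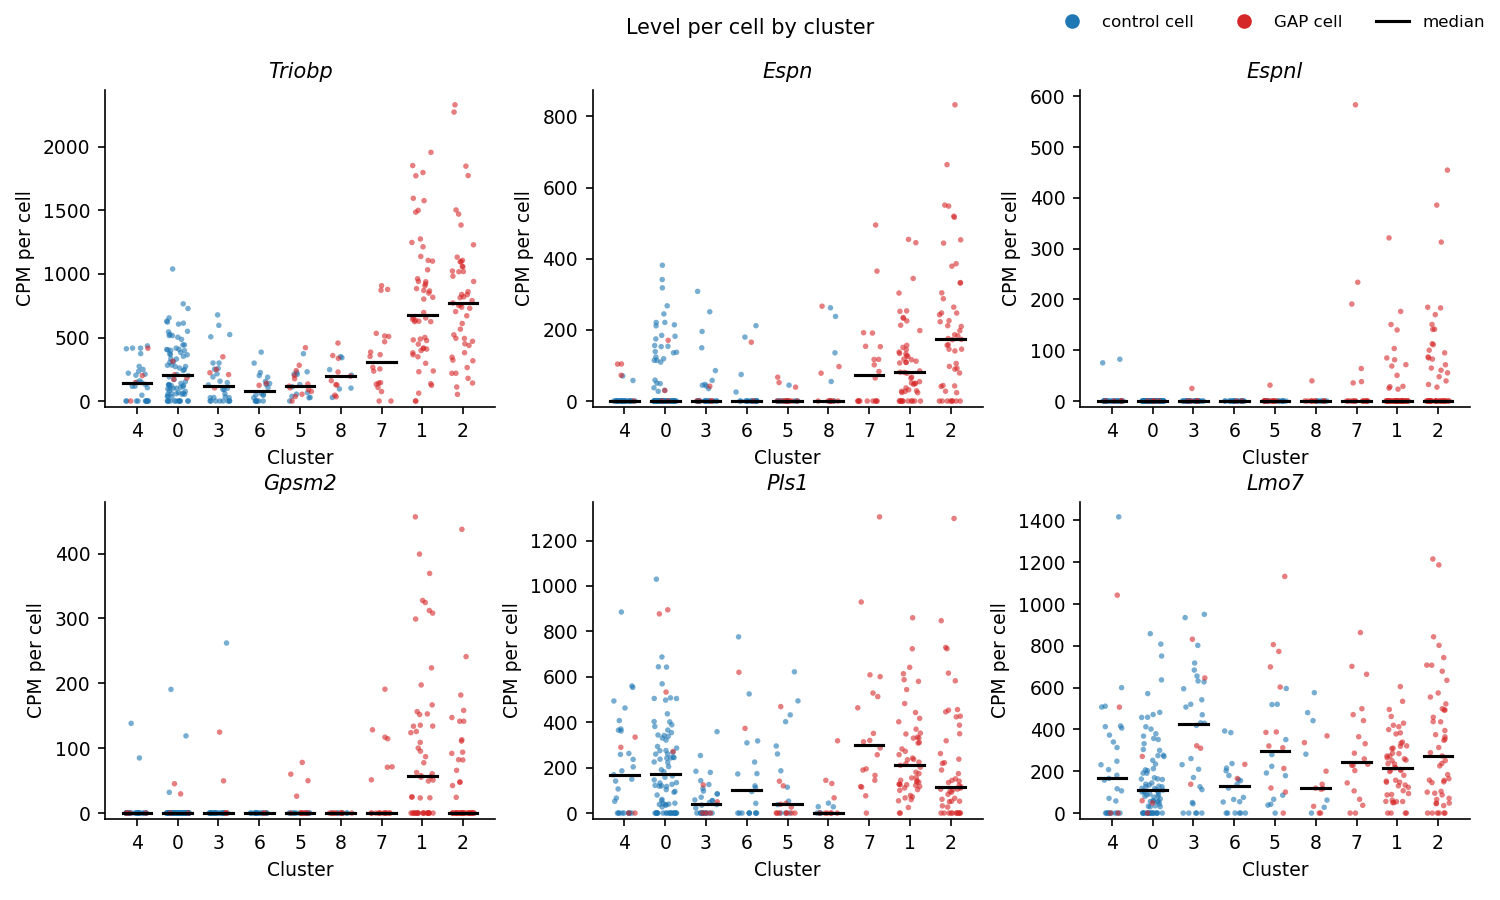
CPM per cell (y axis) by cluster number (x axis) for 6 of the genes, with blue points for control cells, red points for GAP cells and a black line at the median. Clusters 0, 3 and 6 are WT Cells 1, 2 and 3, cluster 4 is WT Supp Cells, clusters 5 and 8 Unknown 1 and 2, cluster 7 Reprogrammed Supp Cells 2, cluster 1 Reprogammed Sup Cells 1 and cluster 2 Reprogrammed Hair Cells. The median line is at 0 for Espnl in every cluster, and for Gpsm2 in every cluster but cluster 1.

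A gene was taken as shared with control cells where all 4 clusters with at least 20 control cells held it, in those control cells, at 10 CPM or more and in at least 10% of thinned cells. By this rule Triobp, Pls1, Eps8l2 and Lmo7 were shared and the other 5 were not. Over those 4 clusters Triobp ranged from 100 to 255 CPM, Pls1 from 79.1 to 207, Eps8l2 from 32.7 to 107.8 and Lmo7 from 122.9 to 467. Espn met the rule in 3 of the 4 clusters, missing it in WT Supp Cells at 4.36 CPM. Eps8 met it in 2. Espnl, Fscn2 and Gpsm2 met it in none, with highest levels of 4.36, 1.24 and 12.4 CPM.

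Set against the 29 control cells of WT Supp Cells, 6 of the 9 genes were at least 2-fold higher in the hair cell cluster and none 2-fold lower, where 26.5% of 10461 genes were higher and 17.4% lower. Espn was 48.6-fold higher (13.3 to 403, on 2 UMIs in WT Supp Cells), Espnl 16-fold (4.33 to 134.2), Triobp 5.45-fold (4.31 to 6.97), Gpsm2 4.92-fold (1.83 to 18.6) and Eps8l2 3.2-fold (1.88 to 5.85). Fscn2, with 15 against 0 UMIs, was at least 1.59-fold higher against a limit of 3 counts over WT Supp Cells, and counts as 2-fold only on the log2(CPM + 1) scale. With Fscn2 at that bound 5 genes remain. Espn and Espnl (4.36 CPM each in WT Supp Cells), Gpsm2 (8.72) and Fscn2 (0) passed 10 CPM through the hair cell cluster alone. The counts thus only describe the list. The median log2 ratio was 2.18, or 1.65 with Fscn2 at its bound, against 0.14 over all genes. Pls1 (1.16, 0.919 to 1.47), Eps8 (0.993, 0.556 to 1.87) and Lmo7 (1.4, 1.14 to 1.73) stayed under 2-fold. Without letter A, which leaves 9 control cells there, the log2 ratio of Gpsm2 fell from 2.18 to 0.84 and that of Eps8 went from -0.01 to 2.01.

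The same hair cell cluster was set against 15 GAP cells that fell into WT Cells 1, 2 and 3 and WT Supp Cells. Both sides then share genotype and letters. Again 6 of the 9 genes were at least 2-fold higher, against 24.6% of 10318 genes, and none was 2-fold lower, against 14.9%. Espnl was 24-fold higher (4.21 to 958, on 1 UMI), Espn 4.55-fold (2.75 to 8.06), Triobp 4.31-fold (3.39 to 5.55), Eps8l2 2.99-fold (1.66 to 5.92) and Gpsm2 2.46-fold (1.07 to 6.95). Fscn2 was at least 1.19-fold higher by the limit of 3 counts, so that 5 genes remain at the bound, with a median of 1.25 in place of 1.55, against 0.16 over all genes. Espnl (2.91 CPM in the 15 cells) and Fscn2 (0) passed 10 CPM through the hair cell cluster alone. Pls1 was lower in the hair cell cluster, at 239.5 against 344 CPM (0.697, 0.564 to 0.867). These 15 cells hold 343415 UMIs in all.

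Within letter C (20 against 5 cells) 6 of the 9 genes were past 2-fold higher and 1, Pls1, lower, against 34.3% and 19.9% of genes, with Fscn2 reaching 2-fold only on the log2(CPM + 1) scale. Without C80 the Pls1 ratio went from 0.486 to 0.741, no longer 2-fold lower. Without the hair cell cluster cell with most Espn UMIs the log2 ratio of Espn was 0.99, just under 2-fold. Within letter D (31 against 10 cells) 4 of 8 were higher and none lower, against 28.4% and 19.2%. Among these 4 was Eps8, at 3.31-fold (0.839 to 28.5, on 30 against 2 UMIs), whose ratio within letter C was 0.881. Espnl, Eps8l2 and Fscn2 within C, and Espnl within D, passed 10 CPM through the hair cell cluster alone. Triobp (5.09 and 3.81), Espn (2.35 and 7.12) and Espnl (12.7, and at least 3.89) passed in both letters. Eps8l2 did not: it was at least 6.52-fold higher within C and 1.41-fold (0.765 to 2.86) within D. Gpsm2 was 4.49-fold within C and 1.54-fold (0.54 to 6.05) within D. Without letter C, Eps8l2 and Gpsm2 thus fell under 2-fold.

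Those 15 GAP cells also stand beside the control cells of the same 4 clusters, which compares genotypes among cells placed together. Triobp was at 207 CPM in the GAP and 203 in the control cells (ratio 1.02, 0.787 to 1.3). Espn was at 46.6 and 43 CPM (ratio 1.08, 0.604 to 1.82). The higher levels of both in GAP cells were thus not found here. These clusters sort the same cells whose expression is described, so like levels within them may come from the sorting, which was not tested. Of 7 genes at 10 CPM, Pls1 (2.13, 1.73 to 2.6) and Gpsm2 (3.01, 0.989 to 7.77, on 6 and 20 UMIs) were at least 2-fold higher, against 12.5% of genes. Both rest on single cells: C80 held 36 Pls1 UMIs, 30.5% of those in the 15 GAP cells, and without it the ratio was 1.68 (1.31 to 2.12), under 2-fold. D45 held 3 of the 6 Gpsm2 UMIs, and without it the ratio was 1.62 (0.308 to 5.46) with both levels under 10 CPM. A57 held 10 of the 20 control UMIs of Gpsm2, and without it the ratio was 5.95 (1.78 to 18.1). The Eps8 ratio of 1.02 was 0.423 (0.0853 to 1.28), past 2-fold lower, without C06, which held 5 of its 8 UMIs. Eps8l2 was 2.38-fold lower (1.34 to 4.65), against 15.6% of genes, at 34.9 CPM in the GAP and 83 in the control cells. Its 12 UMIs in the GAP cells were all in letter D, at 62.4 CPM, under 2-fold lower. The 5 GAP cells of letter C held 0. Atoh1 was at 93.2 CPM in these 15 GAP cells (32 UMIs, in 12 of them) and had 0 UMIs in the control cells of the same clusters, against 815 CPM in the hair cell cluster.

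The clusters named for reprogrammed supporting cells were set against the same control cells of WT Supp Cells, so the 3 comparisons share that side. In Reprogammed Sup Cells 1, 5 of 8 genes at 10 CPM were at least 2-fold higher, against 24.4% of genes: Espn 25.7-fold, Gpsm2 10.7-fold, Espnl 6.72-fold, Triobp 4.91-fold and Eps8l2 2.72-fold. In Reprogrammed Supp Cells 2 it was also 5 of 8, against 22.6%: Espn 24.8-fold, Espnl 8.05-fold, Gpsm2 4.7-fold, Triobp 2.17-fold and Pls1 2.03-fold. Without the cell with most UMIs of the gene in Reprogrammed Supp Cells 2, Triobp was at 1.9-fold and Pls1 at 1.67-fold. Espn, Espnl and Gpsm2 rest on 2, 2 and 4 UMIs in WT Supp Cells, and passed 10 CPM through the reprogrammed clusters alone. None was 2-fold lower in either, against 17.9% and 17.7% of genes. Directly against Reprogammed Sup Cells 1, the hair cell cluster was at least 2-fold higher in 2 genes, against 11.6% of genes. Espnl was 2.39-fold higher (1.69 to 3.4) and Fscn2 at least 6.14-fold. Fscn2 passed 10 CPM through the hair cell cluster alone. Gpsm2 was 2.17-fold lower (1.61 to 2.95), against 8.97%. Triobp (1.11, 1.03 to 1.2) differed little between the clusters, and Espn was 1.89-fold higher in the hair cell cluster (1.58 to 2.27).

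Cells were also counted by how many of the 9 genes they showed at 8000 UMIs. A GAP cell had a median of 4 genes (1 to 7) and a control cell 3 (0 to 6). At least 5 genes were seen in 31.1% of GAP cells (56 of 180) and 3.39% of control cells (6 cells), and no cell showed more than 7. All 6 such control cells were in WT Cells 1. By cluster the share was 45.1% in Reprogrammed Hair Cells, 33.3% in Reprogammed Sup Cells 1, 20% in Reprogrammed Supp Cells 2 and 7.14% in WT Cells 1. It was 0% in WT Supp Cells and in WT Cells 2 and 3. These shares and their order depend on the depth chosen and on the random draw at each depth, which was not repeated. At 12000 UMIs the hair cell cluster and Reprogammed Sup Cells 1 were at 54% and 55.6%, Reprogrammed Supp Cells 2 was at 25%, WT Cells 1 at 12.8%, and WT Supp Cells and WT Cells 2 and 3 at 9.09%, 10% and 4.55%. At 4000 UMIs the 3 reprogrammed clusters were at 17.6%, 9.26% and 10% in the order named at first. WT Cells 2 was at 2.94% there (1 of 34 cells), and WT Cells 1, WT Cells 3 and WT Supp Cells were at 0%. By letter, C and D were at 39.1% and 22.7% at 8000 UMIs, at 44.4% and 43.9% at 12000, and at 8.7% and 11.4% at 4000, so no difference between them held across depths.

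**Figure D4:**
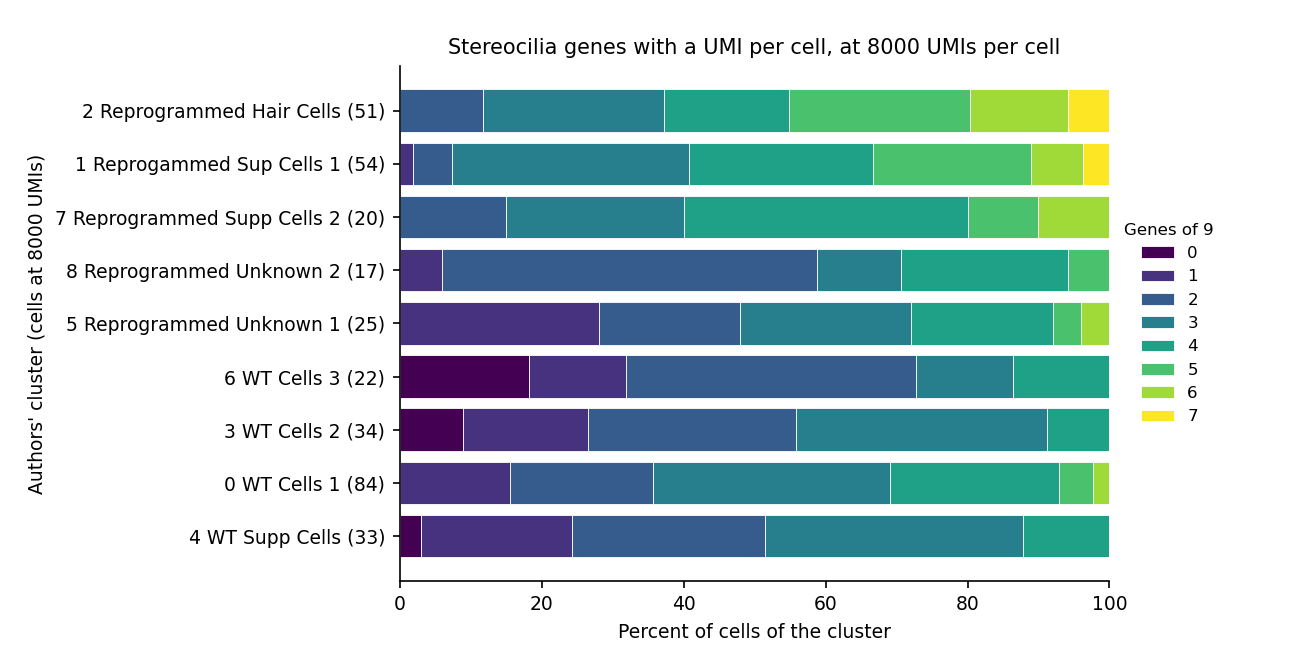
Percent of cells (x axis) by the number of the 9 genes with a UMI at 8000 UMIs per cell (colour), for each cluster (rows, with the number of cells). Bars of the 3 upper clusters reach 5 or more genes in 45.1%, 33.3% and 20% of cells.

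Within the GAP cells the genes moved together only weakly. Over 180 thinned GAP cells the 36 pairs had a median Pearson r of 0.04, and 2 pairs passed 0.3. Over the 51 cells of the hair cell cluster the median was again 0.04, and 5 pairs passed 0.3: Triobp with Eps8l2 (r 0.51, Spearman rho 0.22), Espnl with Eps8l2 (0.47 and 0.40), Eps8l2 with Lmo7 (0.40 and 0.36), Triobp with Lmo7 (0.32 and 0.28) and Pls1 with Lmo7 (0.32 and 0.41). Triobp followed the summed Atoh1, Gfi1 and Pou4f3 over GAP cells (r 0.47, rho 0.53), and was at 0.24 and 0.20 with them within the hair cell cluster. With Myo7a, a myosin of hair cells, it was at 0.43 and 0.32 over GAP cells and at 0.56 and 0.51 in the hair cell cluster. Cells share letters and clusters and counts are sparse, so these are descriptions. Among cells, C81, C70 and D62 were each among the 5 with most UMIs for 3 of the genes, and C81, of 53886 UMIs, has no cluster.

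Over the 9 clusters, Triobp went with Espnl (r 0.89), Espn (0.86) and Gpsm2 (0.86), while Triobp with Eps8 was at 0.13 and with Lmo7 at 0.21. The genes most like each were taken by Pearson r of log2(CPM + 10) over the 9 clusters among 6866 genes, where high values are easily reached with so few points. For Espnl they were Cdc25b (0.976), Clrn1 (0.973), which encodes clarin 1 of the bundle, and Mfng (0.960). For Triobp they were Atf6b (0.961), Vwa8 (0.958) and Fam92a (0.957), and for Gpsm2 Gatsl3 (0.962), Rnf225 (0.960) and Mavs (0.956). Espn was most like Gtf2i (0.935), Golm1 and Usp20 (both 0.925). Pls1 was most like Fam206a (0.963), Bri3bp (0.953) and Ube2k (0.951), and Lmo7 like Trmt1 (0.918), Bcap31 (0.908) and Lrp5 (0.894). Eps8 was most like Exoc6b (0.964), Bnip2 (0.929) and Atl3 (0.924), and Eps8l2 like Bfar (0.919), Golga4 and Mief1 (both 0.895).

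Lists of related genes were read in the same way. Of 11 partners of the tip complex and of length control, 9 reached 10 CPM in a genotype, of which 6 were at least 2-fold higher in GAP cells and none lower, against 13% and 6.61% of genes, with a median log2 ratio of 3.56 against 0.10 over all genes. All of these 6 passed 10 CPM through GAP cells alone, where they are high, so the count and median only describe the list. Myo15, the myosin that carries the complex to the tip, was at 130.4 against 4.5 CPM. Whrn, its scaffold whirlin, was at 98.2 against 4.25 CPM, and Myo3b, a myosin that carries espins, at 50.9 against 1.25. Gnai3, a G protein subunit and partner of Gpsm2, stood at 117.8 CPM in GAP cells against 222 in controls (1.89-fold lower, under 2-fold), and Gnai2 at 494 and 531. Gnai1, named here after its values were seen, was under 10 CPM in both, at 6.89 against 3 CPM (2.3-fold, 1.17 to 4.84). Capzb, a barbed-end capper, was at 342 and 258 CPM.

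Of 14 other actin-linked bundle genes 11 reached 10 CPM, with 7 at least 2-fold higher, 1 lower and a median of 1.11, beside the same shares and median over all genes. Ptprq, a shaft connector phosphatase, was at 309.9 CPM in GAP cells and had 0 UMIs in controls, which by the limit of 3 counts is at least 413-fold higher. Xirp2, which repairs stereocilia actin, and Elmod1 likewise had 0 control UMIs (at least 19.1-fold and 24.1-fold). Ptprq, Xirp2 and Elmod1 thus passed 10 CPM through GAP cells alone. Myo6, the myosin at the base of the rods, was at 1115 against 171.2 CPM and Clic5 at 217 against 100.2. The gene 2-fold lower was Elmod3, at 18.3 against 38 CPM.

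Of 8 relatives of the 9 genes, 4 reached 10 CPM, 1 of them (Fscn1, 16.4 against 6.75 CPM) at least 2-fold higher and none lower, with a median of -0.26. Of all genes 13% were higher, so 1 of 4 is no result about this list. Pls3, the general plastin, was at 49.9 and 53.2 CPM, Eps8l1 at 41.6 and 68.2, and Gpsm1 at 29.4 and 40. Of 16 general actin genes 2 were at least 2-fold higher, Tpm1 (562 against 137.2 CPM) and Wdr1 (508 against 183), and none lower, a share near the 13% of all genes. Their median was 0.19, and Actb, cytoplasmic beta actin, was at 3351 and 3692 CPM.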

How the data were processed

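The deposited matrix gives exon UMI counts per gene and cell, which the authors did not normalize. STAR and HTSeq, with mm10 as the build, are named per the submitters' processing notes. Their versions, the annotation, how UMIs were collapsed and whether strand was used: not given in the sources used here. Per the labels, libraries were SMART-MATQ from cells sorted into 96-well plates. Clusters are the authors' deposited annotation.

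The 9 genes and all lists were chosen with earlier results of these data known. Genes named beside the 9 are, per list, the 3 with most UMIs and the 3 with the largest log2 ratio, and the 3 most alike by cluster. UMIs were summed per set and scaled to CPM. Ratios have exact conditional-binomial, levels exact Poisson and shares exact Clopper-Pearson 95% intervals. Called means at least 2-fold on log2(CPM + 1), with 10 CPM or more in a side. The computation was tested on simulated counts. No column of counts lacked a sample, and no doublet caller was run. Python 3.11.15, numpy 2.4.6, scipy 1.17.1, pandas 2.3.3, matplotlib 3.10.9 and R 4.3.3 with edgeR 4.0.16 and DESeq2 1.42.0 (both for scaling factors alone) were used. Gene lengths and positions are from GENCODE on mm10. Alternatives were other scalings, mean of per-cell CPM, thinning, cell and level filters, another pseudocount, each letter left out and each gene's top cell left out. Chosen after seeing the data were cells with a cluster only, GAP cells up to 45000 UMIs, a wider set of GAP cells for the hair cell comparison, and the top cell left out of 1 side or both in the other comparisons.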

Additional observations from a re-analysis of the deposited data

How the results depend on the processing

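The count of 4 genes at least 2-fold higher in GAP cells stayed at 4 under every alternative run at the filter of 10 CPM. At 50 CPM Espnl, with 40.8 CPM in GAP and 0.5 in control cells, drops out of it. With any UMI Fscn2, with a log2 ratio of 1.79, enters it. The count for the hair cell cluster against WT Supp Cells, 6, ran from 5 to 7, and that against the 15 GAP cells, also 6, from 4 (without letter C) to 6. The median log2 ratio of the 9 genes between genotypes, 1.61, was 1.15 over the genes at 10 CPM only, 0.66 with a pseudocount of 10 CPM, 1.29 without letter A, 1.26 without letter B and 0.60 without letter C. The other alternatives gave 1.40 to 1.66. The share of genes past 2-fold higher was 9.50% at a filter of 50 CPM and 14.7% with none, against 13%. With at least 2 UMIs required, the median number of genes per cell was 2 in GAP and 1 in control cells in place of 4 and 3. Thinned to 4000 UMIs it was 3 and 2. Of 306 recomputed log2 ratios of single genes, 44 moved beyond the counting interval or, where under 2-fold, changed sign. Of called ratios, 0 changed sign. The uncalled Eps8 turned from 0.36 to -0.03 between genotypes without letter C. Of 18 shares of cells 16 moved when cells were thinned to 4000 UMIs. No paired analysis was possible because each sample is 1 cell, the labels name no animals and replicate numbers only count cells. Depth limits Fscn2, with 30 UMIs in all, and Espnl and Gpsm2 in control cells.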

Other observations

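The 17 GAP cells without a cluster held 42346 to 60218 UMIs each (median 49455), against 11514 to 44672 in Reprogrammed Hair Cells. Their summed levels were 703 CPM for Triobp, 136.2 for Espn, 58.9 for Espnl, 40.4 for Gpsm2, 326 for Pls1, 376 for Lmo7, 125.8 for Eps8l2, 19.6 for Eps8 and 8.08 for Fscn2. At 8000 UMIs they showed a median of 4 of the 9 genes, and 8 of the 17 cells showed at least 5. The 2 control cells without a cluster held 6985 and 7929 UMIs, with 4 UMIs of Triobp, 7 of Lmo7 and 1 of Eps8.

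Among the related genes, the relatives had other ratios between the hair cell cluster and WT Supp Cells than between the whole genotypes. Of the 4 relatives at 10 CPM, 3 were at least 2-fold lower in the hair cell cluster and 1 higher, where 17.4% of all genes were lower and 26.5% higher. Eps8l1 was at 19.4 against 89.4 CPM (4.61-fold lower) and Pls3 at 13.2 against 39.2 (2.98-fold). Fscn1 was at 2.77 against 10.9 CPM (3.94-fold lower, on 4 and 5 UMIs). Its ratio was 0.254 (0.0504 to 1.18), and it passed 10 CPM through WT Supp Cells alone. Gpsm1 was 3.18-fold higher (1.27 to 10.2), at 34.6 against 10.9 CPM, with 5 UMIs in WT Supp Cells. With 4 genes these counts are no result about the relatives as a list. In the same comparison 8 of 11 tip partners were at least 2-fold higher, against 26.5% of genes. All but Whrn of these 8 passed 10 CPM through the hair cell cluster alone. Of the 6 with 0 UMIs in WT Supp Cells, Gnai1, Baiap2l2 and Insc had the lowest bounds, and by the limit of 3 counts were at least 1.59-fold, 2.01-fold and 2.33-fold higher, so that Gnai1 passes only on the log2(CPM + 1) scale. Gnai3 stood at 123.2 against 119.9 CPM.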
